A study of Mus musculus with 15 samples.

Results

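Homeostatic microglia, the resident macrophages of the brain in their undisturbed state, are recognised by a small set of genes, of which 9 are described here: Cx3cr1, Tmem119, Siglech, Sall1, Olfml3, Slc2a5, Selplg, Cst3 and Aif1. They were taken by symbol from a count table of 33321 genes, all 9 were found once, and all 9 passed the filter on low counts that left 16795 tested genes. RNA had been sequenced from corpus callosum of mice, a tract of white matter between the hemispheres, in 15 libraries, 3 in each of 5 groups. LPC_Ipsil is the injured tissue after injection of LPC, lysophosphatidylcholine, a lipid that strips myelin. LNIO_Ipsil is the injured tissue after injection of L-NIO, an inhibitor of nitric oxide synthase, which the submitters used to make a white matter stroke. LPC_Contra and LNIO_Contra are the contralateral tissue of each model, and Sham_Ipsil is tissue from sham-operated mice at the site where saline was injected. Both sides of either model were collected on day 4, whereas no day is stated for sham tissue. The labels used here name no strain, sex, age, transgene or clone, and do not state whether each library of a group stands for its own mouse. P-values therefore rest on the spread between samples, and part of that spread may be technical.

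Microglia keep their identity through signals from the brain around them, chiefly TGF-beta and ligands of the receptor Csf1r, which act on transcription factors such as PU.1 (Spi1), Irf8 and Sall1. When white matter is damaged, microglia typically gather at the lesion, divide and take on a damage-associated program in which several homeostatic genes are turned down in each cell. Whole tissue was sequenced here, so fewer cells of a type and less RNA per cell cannot be told apart.

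Library totals ran from 14896445 to 20916606 counts, and 19786 to 20696 genes were detected per library. LPC_Ipsil replicate 3 lay among the sham and contralateral libraries on the leading principal component, and the main results are given with and without it. Other defining genes of homeostatic microglia were present in every library. P2ry12 ran from 66.0 to 236 CPM (counts scaled to a common library size with TMM factors) in LPC_Ipsil. It ran from 94.9 to 148 CPM in LNIO_Ipsil and from 62.6 to 82.1 CPM in Sham_Ipsil. Gpr34 was likewise detected in all 15 libraries, whereas Fcrls had no entry under that symbol among the genes counted.

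Compared per length, the 9 genes sat at very different levels in Sham_Ipsil. Cst3 had 687 ± 54.7 FPKM (SD, n = 3), far above Cx3cr1 with 10.5 ± 0.237 FPKM. Below them Tmem119 had 6.48 ± 0.734, Sall1 5.88 ± 0.76 and Siglech 4.60 ± 0.295 FPKM, and Tmem119 and Sall1 did not differ beyond their spread. Selplg (3.17 ± 1.03 FPKM) and Aif1 (2.51 ± 0.647 FPKM) overlapped in level, as did Olfml3 (1.45 ± 0.422 FPKM) and Slc2a5 (1.44 ± 0.608 FPKM) at the bottom of the order. In LPC_Ipsil the order was Cst3 (1245 ± 469 FPKM), Cx3cr1 (54.9 ± 36.8), Tmem119 (20.9 ± 14.9), Olfml3 (15.5 ± 13.3), Sall1 (13.8 ± 4.45), Siglech (13.6 ± 7.53), Aif1 (9.88 ± 6.03), Selplg (9.78 ± 6.46) and Slc2a5 (5.12 ± 3.25 FPKM). Olfml3 stood next to the bottom in Sham_Ipsil and the fourth in LPC_Ipsil, although its libraries there (1.91 to 28.5 FPKM) overlapped those of Tmem119 above it and Sall1 below it.

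The promoters of these genes are shown for the letters that PU.1, the master factor of the macrophage lineage, is known to bind. RefSeq windows on GRCm38.p6 were at hand for 7 of the 9 genes, in 9 windows, and none was at hand for Tmem119 and Selplg. On either strand, GAGGAA was found in the windows of Siglech, Cst3 and Aif1 and AGGAAGT in 1 of the 3 windows of Sall1. GAGGAA was present in 28.3% and AGGAAGT in 9.35% of all 32851 windows of the same length. Those 4 windows follow, 5′ to 3′ on the gene's strand up to just past the annotated start, with the matches on either strand in capitals (TTCCTC is GAGGAA on the opposite strand).
Siglech, chr7:55767934-55768188, plus strand: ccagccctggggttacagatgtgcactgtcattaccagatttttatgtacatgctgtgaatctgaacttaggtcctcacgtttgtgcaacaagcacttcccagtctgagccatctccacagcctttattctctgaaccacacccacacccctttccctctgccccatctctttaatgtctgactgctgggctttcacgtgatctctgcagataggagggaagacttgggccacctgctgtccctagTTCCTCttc
Sall1, chr8:89042858-89043112, minus strand: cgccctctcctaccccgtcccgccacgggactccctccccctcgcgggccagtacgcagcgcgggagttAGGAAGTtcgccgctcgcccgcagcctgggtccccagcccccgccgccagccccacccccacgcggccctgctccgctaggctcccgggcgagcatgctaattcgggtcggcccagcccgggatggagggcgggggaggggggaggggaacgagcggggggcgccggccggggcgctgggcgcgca
Cst3, chr2:148875508-148875762, minus strand: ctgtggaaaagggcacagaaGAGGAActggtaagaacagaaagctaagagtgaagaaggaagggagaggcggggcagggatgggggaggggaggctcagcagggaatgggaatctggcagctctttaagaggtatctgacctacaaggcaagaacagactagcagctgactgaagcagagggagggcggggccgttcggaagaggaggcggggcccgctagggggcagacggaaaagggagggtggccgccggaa
Aif1, chr17:35176048-35176302, minus strand: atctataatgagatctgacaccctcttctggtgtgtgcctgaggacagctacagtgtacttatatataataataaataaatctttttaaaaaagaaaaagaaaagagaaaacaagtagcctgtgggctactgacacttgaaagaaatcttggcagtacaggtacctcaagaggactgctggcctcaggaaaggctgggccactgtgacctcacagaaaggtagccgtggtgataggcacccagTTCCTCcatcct

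Other letters searched on both strands of the same windows were GGAA and GAAA with 2 bases between them (a joint PU.1 and IRF site, in 2.72% of all windows), TGCTGAC (part of a MAF site, 4.67%), CTA and TAG with 4 bases between them (a MEF2 site, 3.69%) and CAGACA (SMAD, which carries TGF-beta signals, 21.0%). The joint PU.1 and IRF site and TGCTGAC were in none of the 9 windows at hand, the MEF2 site was in that of Cx3cr1, and CAGACA was in those of Siglech and Slc2a5. A match is a run of letters in this window and not a bound site. In the annotation of the same build (GENCODE vM21), exons of Cx3cr1 overlapped those of the antisense gene Gm33858 over 78 of 4505 bases (1.7%). No other overlap with an exon was found for these 9 genes, and a strand setting for the counting was not given in the sources used here.

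**Figure D1:**
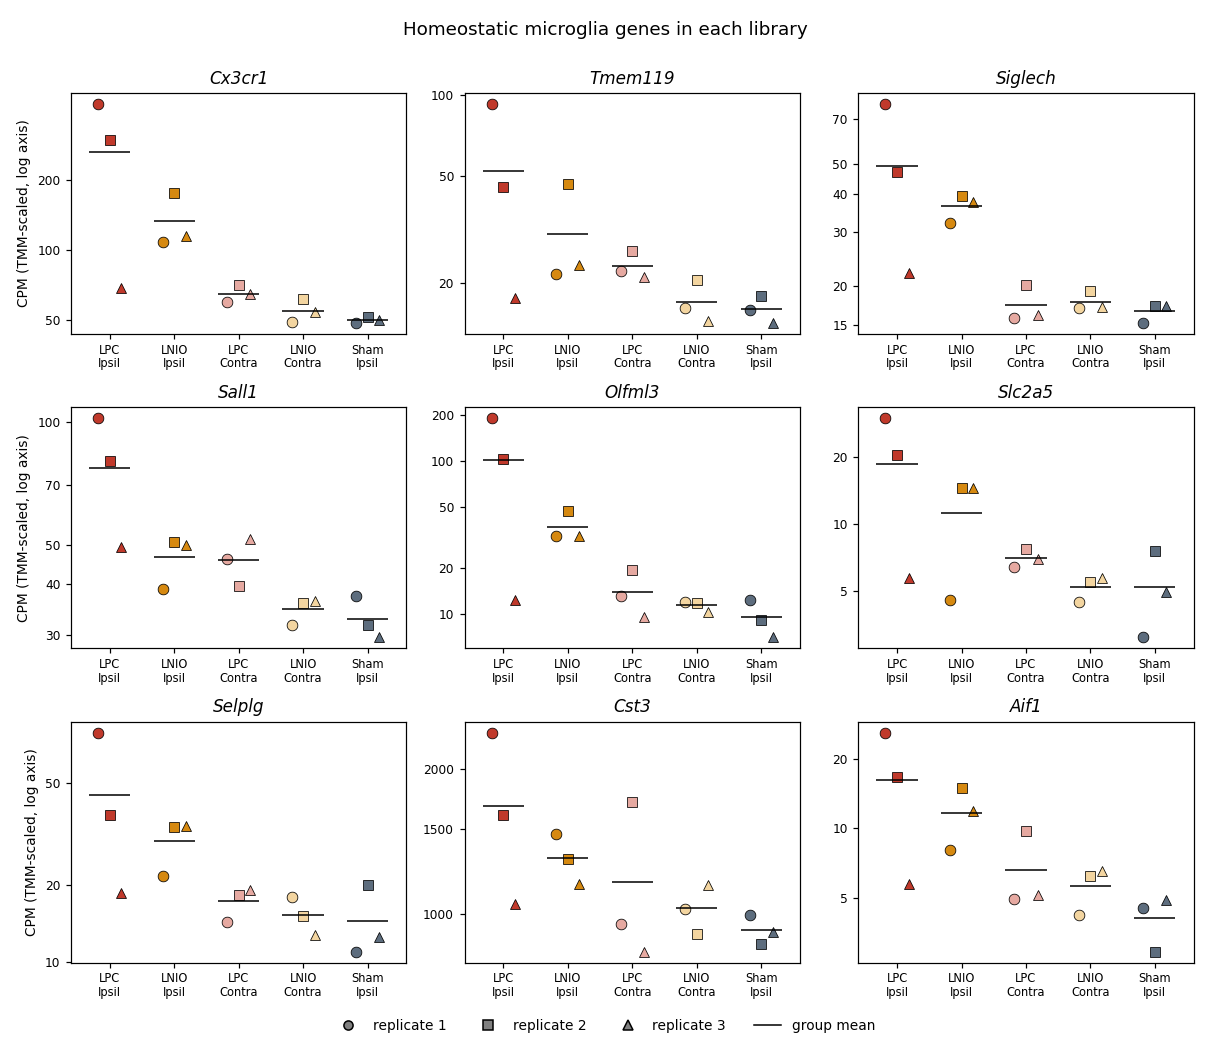
Level of each of the 9 genes in each of the 15 libraries, in TMM-scaled CPM on a log axis, with the mean of each group as a line and the replicate number as the symbol. LPC_Ipsil replicates 1 and 2 are among the 3 highest libraries in every panel, while replicate 3 lies near the sham and contralateral libraries; Cx3cr1, for example, has 425, 298 and 68.8 CPM in LPC_Ipsil and 48.6 to 51.7 CPM in Sham_Ipsil.

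In the LPC lesion most of the 9 genes were more abundant than in sham tissue, the comparison that asks what the injury changed. LPC_Ipsil against Sham_Ipsil gave higher levels for Cx3cr1, Tmem119, Siglech, Sall1, Olfml3, Selplg and Aif1, 7 of 9 by edgeR's quasi-likelihood test at a Benjamini-Hochberg adjusted p under 0.05, and 0 were lower. Of all 16795 genes, 4.19% were called higher, 0.994% lower and 5.19% in either direction. All 9 had an unadjusted p under 0.05, beside 20.2% of all genes. The median log2 fold change of the 9 genes was 1.70 (range 0.86 to 3.43) and that of all genes tested 0.01. Libraries of the groups did not overlap for 5 of the 9 genes, against 14% of all genes with LPC_Ipsil higher. DESeq2's Wald test called 9 of 9, beside 9.01% of all genes. With only the groups compared, or with limma on log2(FPKM + 0.1) or log2(FPKM + 1), 0 of 9 were called (smallest adjusted p 0.109, 0.0509 and 0.0582), and all 9 had an unadjusted p under 0.05 in each of these fits. The calls by edgeR rest on single libraries. Without LPC_Ipsil replicate 3 all 9 genes were called (adjusted p from 2.91e-06 to 0.0118), beside 9.88% of all genes, and the median was 2.11, whereas it was 1.07 without replicate 1. Without LPC_Ipsil replicate 1 or 2, or without Sham_Ipsil replicate 1, 2 or 3, 0 of 9 were called by edgeR, with 8 or 9 of 9 still at an unadjusted p under 0.05. In those 5 fits at most 1 gene of the whole table was called, which holds for the gene lists below as well.

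LNIO_Ipsil against Sham_Ipsil showed the same direction with smaller values. All 9 log2 fold changes were positive, with a median of 1.10 and a range from 0.50 to 1.97, beside a median of -0.02 over all genes. By edgeR 0 of 9 were called (adjusted p from 0.263 to 0.666), as was 0% of all genes. At an unadjusted p under 0.05 there were 6 of 9, beside 8.87% of all genes, and DESeq2's Wald test called 3 of 9, beside 1.41% of all genes. The libraries did not overlap for 8 of 9 genes, all with LNIO_Ipsil higher, against 10.1% of all genes. Leaving out LPC_Ipsil replicate 3, which is in the shared model only through the estimate of spread, brought 4 calls (Cx3cr1, Siglech, Olfml3 and Aif1), beside 2.35% of all genes.

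**Figure D2:**
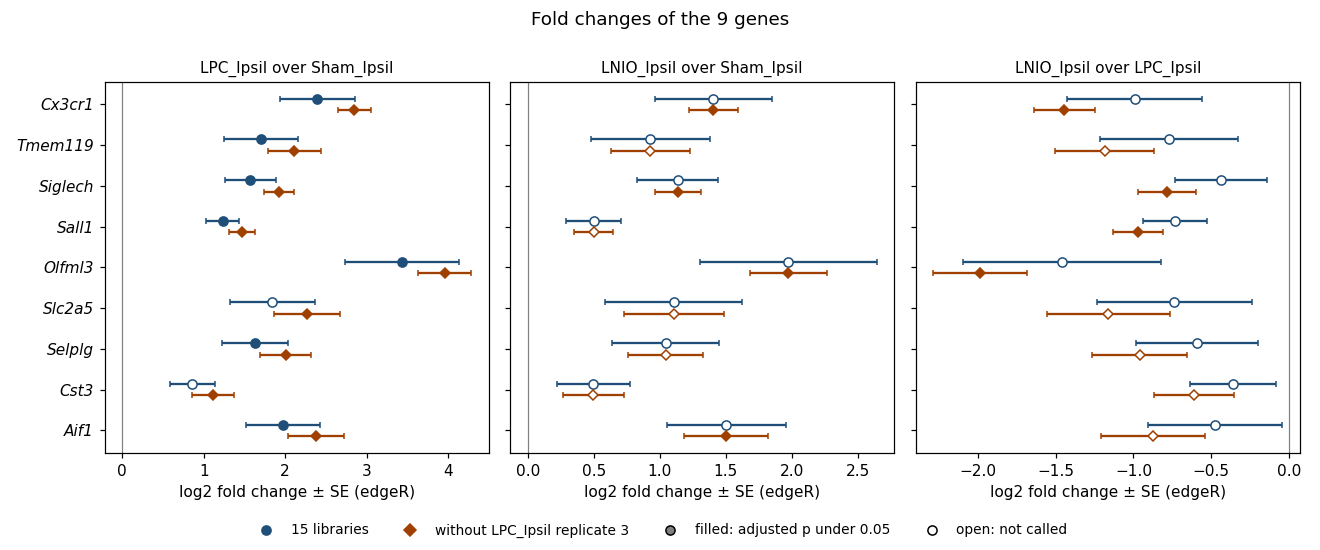
Log2 fold changes with SE of the 9 genes in the comparisons LPC_Ipsil over Sham_Ipsil, LNIO_Ipsil over Sham_Ipsil and LNIO_Ipsil over LPC_Ipsil, from all 15 libraries (circles) and without LPC_Ipsil replicate 3 (diamonds), with filled symbols where the adjusted p was under 0.05. Olfml3 has the highest value over sham in both lesions (3.43 and 1.97) and every point lies above 0 against sham and below 0 between the lesions.

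Among the receptors, Cx3cr1 encodes the receptor of fractalkine, through which neurons and microglia communicate. It had 425, 298 and 68.8 CPM in LPC_Ipsil and 108, 175 and 114 CPM in LNIO_Ipsil, against 48.6, 51.7 and 50.04 CPM in Sham_Ipsil. Every library of either lesion lay above every sham library, and the sham libraries were nearly level. It rose 5.26-fold in LPC_Ipsil (log2 2.40 ± 0.45 SE, adjusted p = 0.0243) and its log2 fold change in LNIO_Ipsil was 1.40 ± 0.44 (adjusted p = 0.308). Contralateral tissue had 59.5, 70.4 and 64.9 CPM in LPC_Contra and 48.9, 61.8 and 54.1 CPM in LNIO_Contra, so LPC_Contra lay above sham without overlap and LNIO_Contra did not.

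Siglech encodes a sialic acid-binding lectin that, in the brain, marks microglia, and signals through the adaptor Tyrobp. Its levels were 78.6, 47.2 and 22.1 CPM in LPC_Ipsil and 32.1, 39.5 and 37.7 CPM in LNIO_Ipsil, against 15.2, 17.2 and 17.3 CPM in Sham_Ipsil. Both lesions were clear of sham, and LNIO_Ipsil varied less than LPC_Ipsil. It rose 2.97-fold in LPC_Ipsil (log2 1.57 ± 0.31, adjusted p = 0.0243), and its log2 fold change in LNIO_Ipsil was 1.14 ± 0.31 (adjusted p = 0.263), the smallest adjusted p of the 9 genes in that comparison. LPC_Contra had 15.7, 20.1 and 16.1 CPM and LNIO_Contra 16.9, 19.3 and 17.1 CPM, which overlapped sham.

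Tmem119 encodes a membrane protein used as a marker to set microglia apart from other macrophages. It had 92.7, 45.4 and 17.5 CPM in LPC_Ipsil and 21.5, 46.4 and 23.2 CPM in LNIO_Ipsil, against 15.9, 17.9 and 14.2 CPM in Sham_Ipsil. LPC_Ipsil replicate 3 lay inside the sham range, while all LNIO_Ipsil libraries were above it. The call in LPC_Ipsil was a narrow one (log2 1.70 ± 0.46, adjusted p = 0.0496), and it was lost with DESeq2 size factors. In LNIO_Ipsil the log2 fold change was 0.93 ± 0.45 (adjusted p = 0.594). Contralateral levels were 22.2, 26.2 and 21.0 CPM in LPC_Contra and 16.2, 20.5 and 14.4 CPM in LNIO_Contra, and the LPC_Contra libraries all lay above sham.

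Selplg encodes PSGL-1, the leukocyte ligand of P-selectin. It had 78.4, 37.3 and 18.6 CPM in LPC_Ipsil and 21.6, 33.5 and 34.0 CPM in LNIO_Ipsil, against 10.9, 19.9 and 12.5 CPM in Sham_Ipsil. Sham_Ipsil replicate 2 lay above LPC_Ipsil replicate 3, and all LNIO_Ipsil libraries lay above sham. It rose in LPC_Ipsil (log2 1.63 ± 0.41, adjusted p = 0.0358), with a log2 fold change of 1.04 ± 0.40 in LNIO_Ipsil (adjusted p = 0.45). LPC_Contra had 14.3, 18.2 and 19.1 CPM and LNIO_Contra 18.0, 15.1 and 12.7 CPM, all within the range of the sham libraries.

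Sall1 is the zinc finger transcription factor that, within the macrophage family, is largely restricted to microglia and holds their identity. Its levels were 102, 80.3 and 49.5 CPM in LPC_Ipsil and 39.0, 50.8 and 49.8 CPM in LNIO_Ipsil, against 37.4, 31.8 and 29.7 CPM in Sham_Ipsil. No lesion library fell within the sham range. It rose 2.35-fold in LPC_Ipsil (log2 1.23 ± 0.21, adjusted p = 0.0243), the smallest fold change among the 7 called genes, and its log2 fold change in LNIO_Ipsil was 0.50 ± 0.21 (adjusted p = 0.5). LPC_Contra had 46.2, 39.6 and 51.8 CPM, above every sham library, and LNIO_Contra had 31.8, 36.0 and 36.4 CPM, which overlapped sham. Sall3, a relative of Sall1 named after its values were seen, had a log2 fold change of 1.13 ± 0.27 in LPC_Ipsil (adjusted p = 0.0285).

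Slc2a5 encodes the fructose transporter GLUT5, which in the brain is found mainly in microglia. It was the least abundant per length and had 29.8, 20.3 and 5.74 CPM in LPC_Ipsil and 4.57, 14.5 and 14.4 CPM in LNIO_Ipsil, against 3.11, 7.57 and 4.98 CPM in Sham_Ipsil. In each lesion 1 library lay within the sham range and the other libraries above it. Its log2 fold change was 1.84 ± 0.52 in LPC_Ipsil (adjusted p = 0.0585) and 1.10 ± 0.52 in LNIO_Ipsil (adjusted p = 0.567), and neither was called. The contralateral levels of 6.42, 7.70 and 7.002 CPM in LPC_Contra and 4.49, 5.49 and 5.73 CPM in LNIO_Contra overlapped sham.

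Olfml3 and Cst3 encode secreted proteins. Olfml3 is an olfactomedin-like matrix glycoprotein whose transcript is strongly enriched in microglia. It had 191, 103 and 12.3 CPM in LPC_Ipsil and 32.2, 47.1 and 32.1 CPM in LNIO_Ipsil, against 12.3, 9.13 and 6.99 CPM in Sham_Ipsil. LPC_Ipsil replicate 3 was level with the highest sham library, and all LNIO_Ipsil libraries were above it. It rose 10.8-fold in LPC_Ipsil (log2 3.43 ± 0.70, adjusted p = 0.0243), the largest fold change of the 9 genes, and its log2 fold change in LNIO_Ipsil was 1.97 ± 0.67 (adjusted p = 0.361). LPC_Contra had 13.04, 19.3 and 9.53 CPM and LNIO_Contra 11.98, 11.7 and 10.3 CPM, and both overlapped sham.

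Cst3 encodes cystatin C, an inhibitor of cysteine cathepsins that astrocytes also make in the brain. Its levels were 2386, 1610 and 1046 CPM in LPC_Ipsil and 1469, 1299 and 1154 CPM in LNIO_Ipsil, against 996, 866 and 916 CPM in Sham_Ipsil. Both lesions were clear of sham, but the fold change in LPC_Ipsil was the smallest of the 9 genes and was not called (log2 0.86 ± 0.28, adjusted p = 0.0901). In LNIO_Ipsil it was 0.50 ± 0.28 (adjusted p = 0.666). LPC_Contra had 954, 1712 and 834 CPM, of which replicate 2 exceeded most lesion libraries, and LNIO_Contra had 1024, 906 and 1150 CPM. The summed astrocyte markers (Aldh1l1, Aqp4, Slc1a3, Gja1 and Gfap) ran from 1792 to 3985 CPM in LPC_Ipsil and from 1795 to 2698 CPM in LNIO_Ipsil, against 1261 to 1621 CPM in Sham_Ipsil, and their part in the level of Cst3 was not tested.

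Aif1 encodes IBA1, an actin-binding protein by which microglia and macrophages are commonly stained. It had 26.1, 16.7 and 5.74 CPM in LPC_Ipsil and 8.08, 15 and 11.9 CPM in LNIO_Ipsil, against 4.48, 2.91 and 4.88 CPM in Sham_Ipsil. All lesion libraries lay above all sham libraries. It rose 3.94-fold in LPC_Ipsil (log2 1.98 ± 0.46, adjusted p = 0.0275), with a log2 fold change of 1.502 ± 0.45 in LNIO_Ipsil (adjusted p = 0.291). LPC_Contra had 4.90, 9.75 and 5.12 CPM, above every sham library, and LNIO_Contra had 4.20, 6.19 and 6.52 CPM, which overlapped sham.

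LNIO_Ipsil against LPC_Ipsil asks whether the lesions differ. All 9 log2 differences were negative, from -0.36 ± 0.28 for Cst3 to -1.46 ± 0.64 for Olfml3, with a median of -0.73 beside -0.04 over all genes. By edgeR 0 of 9 were called, beside 0% of all genes, and by DESeq2 0 of 9, beside 0.109%. At an unadjusted p under 0.05 there were 3 of 9 (Cx3cr1, Sall1 and Olfml3), beside 8.39% of all genes. The LPC_Ipsil libraries enclosed or overlapped the LNIO_Ipsil libraries for every one of the 9 genes, while 6.07% of all genes lay higher and 7.61% lower in LNIO_Ipsil without overlap. Without LPC_Ipsil replicate 3, Cx3cr1 (log2 -1.44 ± 0.20), Siglech (-0.79 ± 0.19), Sall1 (-0.97 ± 0.16) and Olfml3 (-1.99 ± 0.30) were called lower in LNIO_Ipsil at adjusted p from 0.0114 to 0.0489, beside 1.58% of all genes. Without LPC_Ipsil replicate 1 the signs of Siglech, Selplg and Aif1 turned positive (0.07, 0.08 and 0.05), and the median over the 9 genes was -0.06.

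Each lesion was also set against the tissue contralateral to it. In LPC_Ipsil against LPC_Contra all 9 log2 fold changes were positive, from 0.53 ± 0.28 for Cst3 to 2.87 ± 0.67 for Olfml3, and edgeR called 0 of 9 (adjusted p from 0.0629 to 0.491), beside 0% of all genes. At an unadjusted p under 0.05 there were 8 of 9, beside 12.1% of all genes, and DESeq2 called 5, beside 4.17%. Siglech was the 1 gene without overlap, against 7.06% of all genes with LPC_Ipsil higher. Without LPC_Ipsil replicate 3 there were 8 calls, all but Cst3, beside 5.64% of all genes. In LNIO_Ipsil against LNIO_Contra the fold changes ran from 0.35 ± 0.28 for Cst3 to 1.71 ± 0.66 for Olfml3, and 0 of 9 were called by edgeR or by DESeq2, beside 0% of all genes by edgeR and 1.09% by DESeq2. At an unadjusted p under 0.05 there were 5 of 9, beside 6.08% of all genes. All genes but Slc2a5 lay higher in LNIO_Ipsil without overlap, 8 of 9 against 7.91% of all genes, and without LPC_Ipsil replicate 3, which is in neither group, 3 were called, beside 2.21% of all genes. The interaction of model and side, LNIO minus LPC, had a median of -0.33 and was negative for all 9 genes. EdgeR and DESeq2 called 0 of 9, beside 0% of all genes by either tool, with 0 of 9 at an unadjusted p under 0.05 against 1.02% of all genes. Its direction rests on LPC_Ipsil replicate 1, since without that library 6 of 9 genes were positive and the median was 0.16. Without LPC_Ipsil replicate 3 the median was -0.74, with 0 called and 4 of 9 at an unadjusted p under 0.05, beside 3.73% of all genes.

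Contralateral tissue was also set against sham tissue. In LPC_Contra against Sham_Ipsil the median log2 fold change of the 9 genes was 0.44 (range 0.06 to 0.68), beside 0.02 over all genes. EdgeR called 0 of 9, as DESeq2 did, against 0.00595% of all genes by edgeR and 0.193% by DESeq2, and Sall1 (0.48 ± 0.21, unadjusted p = 0.0365, adjusted p = 0.5) was the 1 gene of 9 with an unadjusted p under 0.05, beside 9.67% of all genes. Cx3cr1, Tmem119, Sall1 and Aif1 lay above sham without overlap, 4 of 9 against 7.06% of all genes. LPC_Contra replicate 2 stood apart from the other libraries, and without it the median was 0.29 and 7 of 9 were positive. In LNIO_Contra against Sham_Ipsil the fold changes ran from 0.01 to 0.46 with a median of 0.10, and 0 of 9 were called by either tool or at an unadjusted p under 0.05. Over all genes edgeR called 0%, DESeq2 0.0119%, and 2.72% had that unadjusted p. Without LNIO_Contra replicate 2, or without Sham_Ipsil replicate 1 or 3, 7 of 9 were positive. LNIO_Contra against LPC_Contra gave 0 calls by either tool and 0 of 9 at an unadjusted p under 0.05, beside 0% and 3.43% of all genes by edgeR and 0.0477% called by DESeq2. The median was -0.24 with 1 of 9 positive, and without LPC_Contra replicate 2 it was -0.13 with 4 of 9 positive. Tmem119, Sall1 and Slc2a5 lay lower in LNIO_Contra without overlap, 3 of 9 against 4.67% of all genes.

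Bulk levels of these genes can rise with the amount of microglial RNA in the sample, so each was also expressed per 100 reads of Csf1r, the receptor gene that microglia and macrophages share. Csf1r itself had 666, 437 and 123 CPM in LPC_Ipsil and 143, 291 and 191 CPM in LNIO_Ipsil, against 84.0, 74.4 and 73.3 CPM in Sham_Ipsil, and rose in LPC_Ipsil (log2 2.40 ± 0.45, adjusted p = 0.0243). The ratio says how 2 RNAs stand to each other within a library, not how either stands per cell. With 3 libraries a group the exact permutation test cannot go below p = 0.1, and its p-values are given unadjusted for the 9 genes and 3 comparisons. Because Csf1r is the denominator, 81.9% of the 16794 other tested genes lay lower per Csf1r read in LPC_Ipsil than in Sham_Ipsil without overlap, and 0.137% higher. For LNIO_Ipsil these shares were 83.7% and 0.869%. Of the 9 genes 4 lay lower in LPC_Ipsil and 3 in LNIO_Ipsil, a smaller share than over all genes in each case, and 0 and 1 lay higher.

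The ratio of Cx3cr1 to Csf1r overlapped between all groups. It stood at 63.7, 68.1 and 55.9 reads per 100 of Csf1r in LPC_Ipsil and 76.0, 60.2 and 59.7 in LNIO_Ipsil, against 57.9, 69.5 and 68.2 in Sham_Ipsil. Tmem119 lay lower per Csf1r read in both lesions. It had 13.9, 10.4 and 14.3 reads per 100 of Csf1r in LPC_Ipsil and 15.1, 16.0 and 12.1 in LNIO_Ipsil, against 18.9, 24.0 and 19.3 in Sham_Ipsil. Contralateral values ran from 21.6 to 23.4 in LPC_Contra and from 18.8 to 23.9 in LNIO_Contra, so all 6 lesion libraries lay below the 9 others. LPC_Ipsil replicate 3, whose level of Tmem119 was within the sham range, was among those 6 (two-sided exact permutation p = 0.1 for each lesion against sham). Against sham alone, 81.9% of all genes likewise lay lower per Csf1r read in LPC_Ipsil and 83.7% in LNIO_Ipsil. The share of all genes that separate those 6 libraries from the 9 others was not computed. The separation depends on the denominator, since relative to Aif1 the Tmem119 values of both lesions overlapped sham.

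Sall1 and Cst3 were likewise lower per Csf1r read in both lesions without overlap with sham. Sall1 had 15.3, 18.4 and 40.2 reads per 100 of Csf1r in LPC_Ipsil and 27.3, 17.5 and 26.1 in LNIO_Ipsil, against 44.5, 42.8 and 40.5 in Sham_Ipsil, and LPC_Ipsil replicate 3 lay just under the lowest sham library. Cst3 had 358, 369 and 850 in LPC_Ipsil and 1030, 446 and 603 in LNIO_Ipsil, against 1186, 1165 and 1249 in Sham_Ipsil. Siglech was lower in LPC_Ipsil without overlap (11.8, 10.8 and 18.0, against 18.1, 23.2 and 23.6 in Sham_Ipsil) but overlapped sham in LNIO_Ipsil (22.5, 13.6 and 19.7). The exact permutation p was 0.1 for each of these separated pairs, the smallest the design allows. The counts depend on the denominator and on single libraries. In LPC_Ipsil against Sham_Ipsil, 1 of the other 8 genes, Cst3, lay lower without overlap per Aif1 read, beside 65.2% of all genes. Without Sham_Ipsil replicate 1, 7 of 9 lay lower there per Csf1r read, beside 88.2%. In LNIO_Ipsil, 6 of 9 lay lower than in Sham_Ipsil relative to the mean of Csf1r, Spi1 and Irf8, beside 92.2% of all genes.

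Olfml3 lay higher per Csf1r read in LNIO_Ipsil than in sham, but this separation was lost relative to Aif1 and to the mean of Csf1r, Spi1 and Irf8. It had 28.7, 23.5 and 9.98 reads per 100 of Csf1r in LPC_Ipsil, where replicate 3 fell in the sham range, and 22.6, 16.2 and 16.8 in LNIO_Ipsil, above the 14.7, 12.3 and 9.53 of Sham_Ipsil (exact permutation p = 0.1 for LNIO_Ipsil and 0.3 for LPC_Ipsil). Slc2a5 was nearly constant in LPC_Ipsil at 4.48, 4.65 and 4.67, inside the wide sham range of 3.70 to 10.2, and Selplg and Aif1 also overlapped sham in both lesions. Between the lesions, Aif1 was the 1 gene without overlap, with 5.16 to 6.20 in LNIO_Ipsil and 3.83 to 4.67 in LPC_Ipsil (exact permutation p = 0.1), beside 1.58% of all genes higher and 0.0476% lower, and its separation was lost relative to the mean of Csf1r, Spi1 and Irf8.

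**Figure D3:**
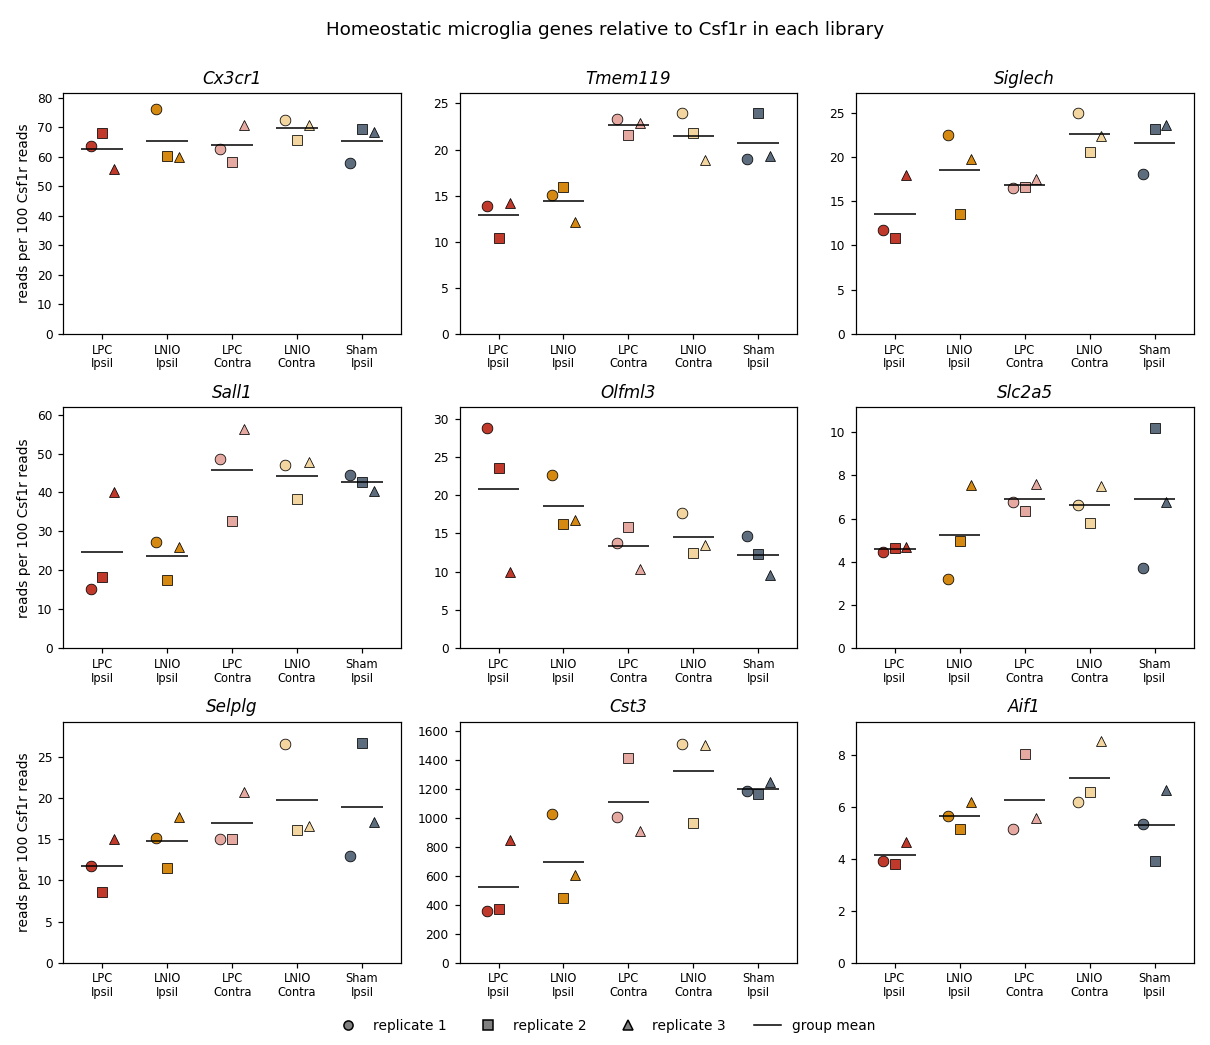
Reads of each of the 9 genes per 100 reads of Csf1r in each library, on linear axes that start at 0, with the group mean as a line. Tmem119 is lower in all 6 lesion libraries (10.4 to 16.0) than in the 9 others (18.8 to 24.0), and Cx3cr1 overlaps between all groups. The separation of Tmem119 from sham was lost relative to Aif1. Per Csf1r read, 81.9% of all genes lie lower than sham without overlap in LPC_Ipsil and 83.7% in LNIO_Ipsil.

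Across the 15 libraries the 9 genes had like patterns. The mean of their z-scored log2 CPM was highest in LPC_Ipsil replicate 1 (2.37) and replicate 2 (1.44), followed by LNIO_Ipsil replicates 2, 3 and 1 (0.90, 0.53 and 0.11) and LPC_Contra replicate 2 (0.07). LPC_Ipsil replicate 3 was next at -0.30, and the sham libraries were lowest at -0.71 to -0.87. Cx3cr1 and Olfml3 were the most alike pair (Pearson r = 0.98 over 15 libraries), and Cst3 was the least alike to most others (r = 0.67 with Slc2a5). Outside the 9 genes, the most alike to their mean were Itgb5, an integrin subunit, Grn, which encodes progranulin, Csf1r, the lysosomal enzymes Man2b1 and Hexa, Hcls1, Irf5 and Sparc (r from 0.98 to 0.99). These values share the same libraries, and between-group differences carry much of them, so they are descriptions of pattern.

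Gene lists of the same biology were set beside the 9 genes in LPC_Ipsil against Sham_Ipsil. Other homeostatic genes, 18 listed and 17 tested, had 13 called higher, beside 4.19% of all genes, 0 lower and a median log2 fold change of 2.01. Csf1r, the phagocytic receptor gene Trem2 (3.57 ± 0.74), the sialic acid lectin gene Cd33 (2.01 ± 0.34) and the integrin gene Itgam (3.04 ± 0.54) were among them. Damage-associated genes, 20 of 20 tested, had 15 called higher and a median of 3.57, beside 1.70 for the 9 genes, with Trem2 in both lists. In LNIO_Ipsil against Sham_Ipsil edgeR called 0 in each list, and the medians were 1.38 for other homeostatic genes and 2.56 for damage-associated genes. There 14 of 17 and 16 of 20 had an unadjusted p under 0.05, beside 8.87% of all genes. Without LPC_Ipsil replicate 3, edgeR called 16 of 17 and 19 of 20 in LPC_Ipsil, beside 9.88% of all genes. In LNIO_Ipsil, a group that library is not in, it then called 13 of 17 and 14 of 20, beside 2.35%.

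Of 14 microglial transcription factors, 8 were called higher in LPC_Ipsil and 0 lower, with a median of 1.07. Over all genes 4.19% were called higher and 0.994% lower. Spi1 (log2 3.08 ± 0.58), its partner Irf8 (3.29 ± 0.61), Runx1 (3.12 ± 0.62) and Maf (1.33 ± 0.28) rose at an adjusted p of 0.0243. Mef2a (-0.08 ± 0.11) and Mef2c (-0.07 ± 0.15), which neurons also express and which were named after their values were seen, were not called. In LNIO_Ipsil the list had 0 calls by edgeR, beside 0% of all genes, and a median of 0.53. At an unadjusted p under 0.05 there were 6 of 14, beside 8.87% of all genes. Leaving out LPC_Ipsil replicate 3 gave 8 of 14 calls in LPC_Ipsil and 5 of 14 in LNIO_Ipsil, beside 9.88% and 2.35% of all genes.

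The list of ligands and partners held 17 genes, of which 14 were tested. Besides ligands and partners of the 9 gene products it took in the ligands of Csf1r and the genes of TGF-beta and its activation. In LPC_Ipsil 8 were called higher, beside 4.19% of all genes, with a median of 1.27. Csf1, a ligand of Csf1r, rose (log2 1.38 ± 0.21), as did Tgfb1 (3.13 ± 0.60) and the genes of the cysteine cathepsins Ctsh (2.42 ± 0.48) and Ctsl (1.17 ± 0.26), which cystatin C inhibits. Tyrobp, the adaptor of Siglech, and Cx3cl1, the ligand of Cx3cr1, were named after their values were seen. Tyrobp rose (3.80 ± 0.81, adjusted p = 0.0256), whereas Cx3cl1 had 305, 343 and 328 CPM in LPC_Ipsil and 284, 348 and 297 CPM in LNIO_Ipsil, against 305, 389 and 440 CPM in Sham_Ipsil, which overlapped (log2 -0.22 ± 0.14 in LPC_Ipsil, adjusted p = 0.403). Contralateral levels of Cx3cl1 were 500, 433 and 486 CPM in LPC_Contra and 391, 394 and 364 CPM in LNIO_Contra. Each lesion lay below its own contralateral tissue without overlap, as did 1107 of 16795 genes in the LPC model and 880 in the L-NIO model. The selectin genes Selp and Sele, whose products bind PSGL-1, were too low to test, at 0.194 CPM or less in every library. In LNIO_Ipsil 0 of the 14 tested were called by edgeR, beside 0% of all genes, and the median was 0.55. An unadjusted p under 0.05 was found for 7, beside 8.87% of all genes. With LPC_Ipsil replicate 3 left out there were 8 of 14 calls in LPC_Ipsil and 6 of 14 in LNIO_Ipsil. Beside them stood 9.88% and 2.35% of all genes.

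**Figure D4:**
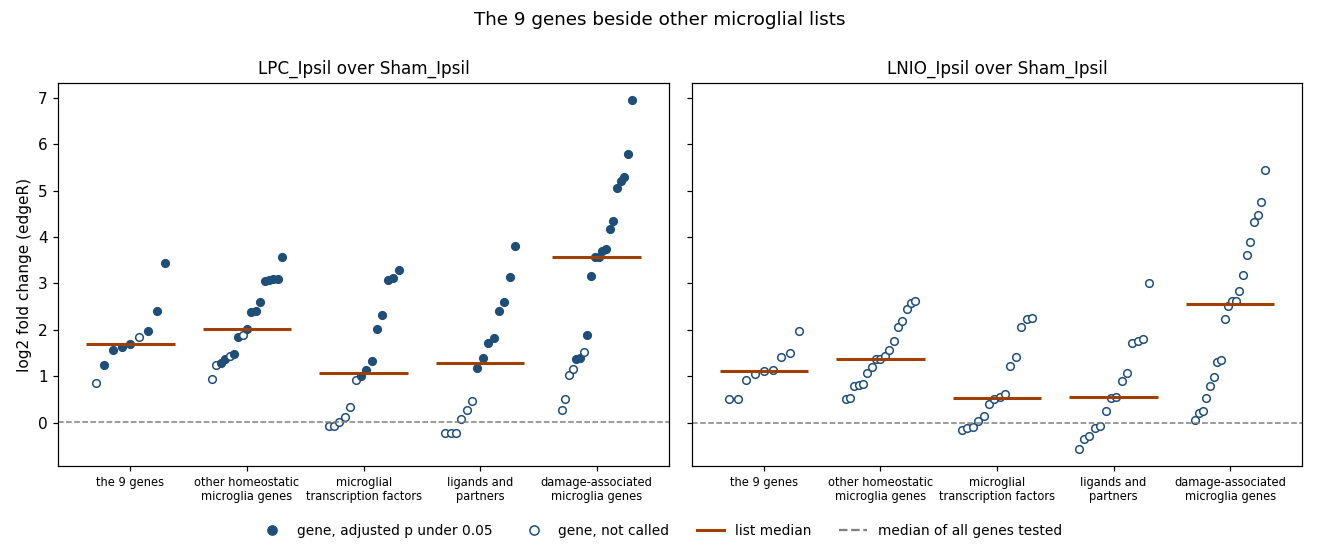
Log2 fold changes over Sham_Ipsil in LPC_Ipsil (left) and LNIO_Ipsil (right) of the 9 genes and of 4 other lists, with each list's median as a bar and the median of all genes tested as a dashed line. The median of the 9 genes is 1.70 in LPC_Ipsil and 1.10 in LNIO_Ipsil, below that of damage-associated genes (3.57 and 2.56), and filled points are calls at an adjusted p under 0.05.

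Markers of other cells in the tissue were set beside these values. Border macrophage markers, 8 genes, summed to 9.25 to 31.2 CPM in LPC_Ipsil and 16.0 to 23.1 CPM in LNIO_Ipsil, against 7.41 to 18.9 CPM in Sham_Ipsil. In LPC_Ipsil 1 of 8 was called higher, beside 4.19% of all genes, and 3 had negative log2 fold changes. Of these markers Siglec1, named after its values were seen, had 18.9, 6.85 and 0.605 CPM in LPC_Ipsil. It had 2.34, 12.8 and 7.49 CPM in LNIO_Ipsil, against 0.777, 0.0676 and 0.352 CPM in Sham_Ipsil. Monocyte markers, 7 genes, summed to 99.3 to 202 CPM in LPC_Ipsil and 101 to 139 CPM in LNIO_Ipsil, against 61.5 to 117 CPM in Sham_Ipsil, and Vcan and Fn1 made up most of those sums. The defining monocyte gene Ccr2 did not exceed 3.20 CPM in any library. EdgeR called 0 of 5 tested monocyte markers in LPC_Ipsil, beside 5.19% of all genes. An unadjusted p under 0.05 was found for 1, beside 20.2% of all genes. Ly6g, the defining neutrophil gene, had a count of 0 in all 15 libraries, which allows a level of up to 0.203 CPM (3 counts, counting error only). Cd3e, of T cells, did not exceed 0.167 CPM. The 7 T cell markers summed to 25.96 to 39.83 CPM in LPC_Ipsil and 23.22 to 37.59 CPM in LNIO_Ipsil, against 16.14 to 45.56 CPM in Sham_Ipsil. Cd4 and Trbc2, the 2 tested, made up most of those sums, and edgeR called 0 of 2 in LPC_Ipsil, beside 5.19% of all genes. Proliferation genes summed to 43.1 to 107 CPM in LPC_Ipsil and 40.8 to 71.8 CPM in LNIO_Ipsil, against 25.6 to 44.8 CPM in Sham_Ipsil. In LPC_Ipsil 1 of 6 was called higher, beside 4.19% of all genes. An unadjusted p under 0.05 by edgeR was found for 5 of 6 there, beside 20.2% of all genes, and for 3 of 6 in LNIO_Ipsil, beside 8.87%. Endothelial markers (Cldn5, Pecam1, Flt1 and Cdh5) summed to 88.28 to 116.8 CPM in LPC_Ipsil and 67.0 to 90.23 CPM in LNIO_Ipsil, against 63.69 to 70.01 CPM in Sham_Ipsil. All 4 lay above sham in LPC_Ipsil without overlap (median log2 0.63), beside 14% of all genes. At an unadjusted p under 0.05 there were 3 of 4, beside 20.2% of all genes. EdgeR called 0 of 4, beside 5.19% of all genes. Pericyte markers, 4 genes, summed to 111.6 to 149.6 CPM in LPC_Ipsil and 92.99 to 169.6 CPM in LNIO_Ipsil, against 97.03 to 106.6 CPM in Sham_Ipsil. In LPC_Contra the endothelial markers summed to 76.05 to 163.1 CPM and in LNIO_Contra to 49.27 to 68.23 CPM. All 4 had an unadjusted p under 0.05 in LPC_Contra against sham (median 0.77), beside 9.67% of all genes. There edgeR called 0 of 4, beside 0.00595% of all genes. The part of border macrophages, monocytes, T cells, endothelium, pericytes and dividing cells in the levels of the 9 genes was not tested.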

How the data were processed

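The authors' deposited count table lists reads assigned to each gene symbol, as whole numbers, in 15 libraries, and the authors' deposited FPKM table holds the same genes scaled by length and depth. Per the labels' protocols, TRIzol RNA was depleted of ribosomal RNA, selected for poly(A) and sequenced from both ends. Per the submitters' processing notes, HISAT2 2.2.1 and R 4.4.2 were used with the GRCm39 build. The sources used here give no counting program, strand setting or annotation. Symbols carry no other identifier, 74 entries repeat a symbol, and 0 columns were left unmatched.

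The main test was edgeR's quasi-likelihood test (version 4.0.16, R 4.3.3) with robust estimation of dispersion. Libraries were scaled by TMM (0.966 to 1.06), and filterByExpr, with a minimum count of 10 and a minimum total of 15, left 16795 genes. All 15 libraries shared a model that gave each group its own mean. P-values were Benjamini-Hochberg adjusted within a comparison and called under 0.05, and SE was derived from the log2 fold change and its F statistic. The procedure was tested on simulated data. CPM values are TMM-scaled, and log2 CPM used a prior count of 2. Ratios to Csf1r were compared by a two-sided exact permutation test in scipy 1.17.1. Chi-square per degree of freedom between replicates of a group ran from 10.1 to 63.7, so no library looked deposited again within its group. Pairs of libraries from different groups were not checked in this way.

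The 9 genes and the lists were chosen with earlier results of these data known, and some lists share genes. Up to 4 genes of a list are named, those with the smallest adjusted p in LPC_Ipsil against Sham_Ipsil, and genes outside that rule are said to be. The labels do not say whether same-numbered libraries are pairs, and the main test used no pairing. Same-numbered libraries of LNIO_Ipsil and LNIO_Contra deviated together (correlations of 0.60, 0.36 and 0.25). For LPC_Ipsil and LPC_Contra the correlations were -0.04, 0.16 and 0.33. In no other pair of groups compared were all correlations positive. Alternatives were DESeq2 size factors, DESeq2 1.42.0, no filter on low counts, a replicate block, only the groups compared, limma 3.58.1 on log2(FPKM + 0.1) or log2(FPKM + 1), other denominators and leaving out each library. Promoters are RefSeq windows and exon overlaps are from GENCODE, both on GRCm38, so their coordinates are not those of GRCm39.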

Additional observations from a re-analysis of the deposited data

How the results depend on the processing

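In LPC_Ipsil against Sham_Ipsil, 7 of the 9 genes were called, 9 by DESeq2, 6 with DESeq2 size factors, 4 with no filter on low counts, and 0 with only the groups compared or with limma on log2(FPKM + 0.1) or log2(FPKM + 1). Leaving out single libraries gave 0 to 9 calls. Over all genes the count was 871, and it was 1512 by DESeq2, 524 with no filter, 0 with only the groups compared and 3 under either limma setting, and it ran from 0 to 1660 without single libraries. In LNIO_Ipsil against Sham_Ipsil, 0 of 9 were called, 3 by DESeq2, 4 with only the groups compared and 0 to 4 without single libraries, while all genes gave 0, 237, 378 and, without LPC_Ipsil replicate 3, 395. LNIO_Ipsil against LPC_Ipsil gave 0 to 4 without single libraries, and all genes gave 0, 18 by DESeq2 and 266 without LPC_Ipsil replicate 3. LPC_Ipsil against LPC_Contra gave 0, 5 by DESeq2 and 0 to 8 without single libraries, and over all genes 0, 700 by DESeq2 and 948 without LPC_Ipsil replicate 3. LNIO_Ipsil against LNIO_Contra gave 0, 4 with only the groups compared and 0 to 3 without single libraries, and over all genes 0, 180 by DESeq2, 359 with only the groups compared and 371 without LPC_Ipsil replicate 3. By DESeq2, 28 genes were called in LPC_Contra against Sham_Ipsil (1 by edgeR), 2 in LNIO_Contra against Sham_Ipsil (0, and 3 with only the groups compared) and 8 in LNIO_Contra against LPC_Contra (0). The cause was not tested.

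With the replicate block, 5 of 9 genes were called in LPC_Ipsil against Sham_Ipsil and 652 genes in all, in groups that share only a number. The block changed no call of the 9 genes in the other comparisons, LNIO_Ipsil against LNIO_Contra included. It gives each replicate number an effect shared by all groups, so a pairing within the L-NIO model alone was not tested.

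Without LPC_Ipsil replicate 1, LNIO_Ipsil against LPC_Ipsil reversed to 0.068 for Siglech, 0.0845 for Selplg and 0.0461 for Aif1. Leaving out single libraries moved these log2 values between -0.79 and 0.07 for Siglech, -0.96 and 0.08 for Selplg and -0.88 and 0.05 for Aif1.

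Relative to Csf1r, 4 genes lay lower in LPC_Ipsil than in Sham_Ipsil without overlap (1 with Aif1 as denominator, 4 to 7 without single libraries) and 0 higher (0 to 1). In LNIO_Ipsil, 3 lay lower (6 with the mean of Csf1r, Spi1 and Irf8) and 1 higher (0 with either other denominator). Between the lesions, 0 lay lower (0 to 1 without single libraries) and 1 higher (0 with either other denominator, 1 to 3 without single libraries). Alternatives were tallied together for single genes in the comparisons with lesion tissue and for their ratios against sham. Counts over all genes, in every comparison, were tallied with them. The verdict was the same in 1144, weaker in 72, stronger in 41, moved in 70 and reversed in 3. Weaker means that a call was lost, and only LPC_Ipsil against Sham_Ipsil had calls of these genes to lose. Limits are 3 libraries a group, 1 LPC_Ipsil library unlike its group, and low counts for Slc2a5 and Aif1.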

Other observations

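Csf3r, the receptor of a granulocyte growth factor that was listed as a neutrophil marker, had 192, 109 and 15.7 CPM in LPC_Ipsil and 58.8, 64.0 and 54.6 CPM in LNIO_Ipsil, against 15.6, 11.4 and 6.74 CPM in Sham_Ipsil. It made up most of the summed neutrophil markers in every library, as Ly6g was at 0, and was chosen after its values were seen. It rose in LPC_Ipsil (log2 3.23 ± 0.64 SE, adjusted p = 0.0243 by edgeR). Neuron markers, 5 genes, summed to 2812 to 3623 CPM in LPC_Ipsil and 3540 to 4104 CPM in LNIO_Ipsil, against 3768 to 4966 CPM in Sham_Ipsil. In LPC_Ipsil 1 of 5 was called lower, beside 0.994% of all genes. Oligodendrocyte markers, 6 genes, summed to 19030 to 29100 CPM in LPC_Ipsil, with replicate 3 highest, and 15870 to 20880 CPM in LNIO_Ipsil, against 14860 to 23350 CPM in Sham_Ipsil, and 0 of 6 were called in LPC_Ipsil by edgeR, with 0 at an unadjusted p under 0.05.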
